A study of Mus musculus with 4 samples.

Results

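Sciatic nerve cells from newborn mice were prepared for single-cell sequencing in 2 ways, and the 2 libraries are compared here. One suspension was passed over magnetic beads that hold back myelin. The other was sorted by FACS for cells with high Hoechst staining, which separates nucleated cells from myelin debris, and without propidium iodide, which enters dead cells. Every barcode with at least 200 genes detected and at most 10% of its UMIs (unique molecular identifiers, the counted mRNA molecules) from mitochondrial genes was kept. This left 2306 of 2500 barcodes of the FACS library and 5736 of 6200 of the bead library, 8042 of the 12268 kept in the 4 libraries of the series. Both came from wild-type CD1 mice, with the nerves of both sides dissociated in collagenase and trypsin, and both were run on Drop-seq. The FACS library was made from mice of postnatal days 3 to 4 and the bead library from postnatal days 2 to 3. The other libraries, also made with beads, are from adult nerve, uninjured or at 3 days post injury (3 DPI).

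There was 1 library for each preparation, so preparation, age, animals and library cannot be told apart and no difference was tested. Intervals are exact 95% intervals of the counts (Clopper-Pearson for shares, Poisson for levels) and cover counting error only. Levels are CPM, the UMIs of a gene summed over the cells of a class and scaled to a common total. A log2 value is the FACS level over the bead level, and a gene was said to be past 2-fold only as a description of its size.

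The sciatic nerve holds Schwann cells, which wrap axons and build myelin after birth, and mesenchymal cells of the endoneurium, perineurium and epineurium, which secrete collagen. Blood vessels bring endothelial cells, vascular smooth muscle (VSM) and pericytes, and resident macrophages lie among the fibres. Immediate early genes encode transcription factors and feedback regulators that are transcribed within minutes of a stimulus, the handling of tissue among them. Free RNA from broken cells enters droplets with every cell and is counted there.

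The median FACS cell had 1606.5 UMIs and 949 genes, against 1009.5 UMIs and 681 genes in the bead library. Kept cells held 5042018 UMIs with FACS and 7445539 with beads. In median UMIs the FACS classes were deeper, at 1324 against 925.5 in Schwann-like and 2126 against 1293 in mesenchymal-like cells. Barcodes ending in N, where a base was not read, were 8.6% of the FACS and 0.5% of the bead barcodes, and the libraries shared 3 cell barcodes. In the bead library, 276 pairs of barcodes differed only at base 3, with a median of 2066 UMIs in the deeper and 295 in the shallower barcode, and in 207 of the pairs both barcodes were kept. One FACS cluster stood apart: 308 Schwann-like cells had a median of 489 UMIs and 4.16% mitochondrial UMIs, against 2.40% in the median FACS cell. Values that rest on these cells are given with and without them.

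Each library was clustered on its own, without stress, globin, ribosomal and mitochondrial genes, and clusters were named from marker genes. Of 47 markers of 5 classes, 47 were highest in their own class with beads and 45 with FACS. The clusters were named from these same markers, so the count describes the naming and does not check it. The exceptions with FACS were Fabp7, a fatty acid binding protein of immature Schwann cells, at 9.67 CPM in Schwann-like cells, and the T cell receptor gene Trbc2, which had no UMI in immune-like cells and 6 in Schwann-like cells.

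Mesenchymal-like and immune-like cells took a larger share of the FACS library, and the other 3 classes a larger share of the bead library. Mesenchymal-like cells made up 27.8% of FACS cells (640) and 16.6% of bead cells (950), a difference of 11.2 points (9.12 to 13.3). Schwann-like cells made up 56.4% with FACS (1300) and 66.4% with beads (3806), a difference of -9.98 points (-12.4 to -7.59). Endothelial-like cells were 6.42% (148) against 9.29% (533), a difference of -2.87 points (-4.12 to -1.57), and VSM/pericyte-like cells 5.81% (134) against 7.11% (408), a difference of -1.30 points (-2.46 to -0.0796). Immune-like cells were 3.64% (84) against 0.680% (39), a difference of 2.96 points (2.19 to 3.83). The gate and the bead column each choose among cells, so these are shares of the cells each let through. Without the 308 shallow cells, the Schwann-like share with FACS was 49.6% (992 of 1998) and its difference from beads -16.7 points, while the VSM/pericyte-like difference was -0.406 and the endothelial-like -1.88 points. The Schwann-like difference changed direction, to 5.86 points, when each cell was given a class one by one from its own markers in place of its cluster.

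**Figure D1:**
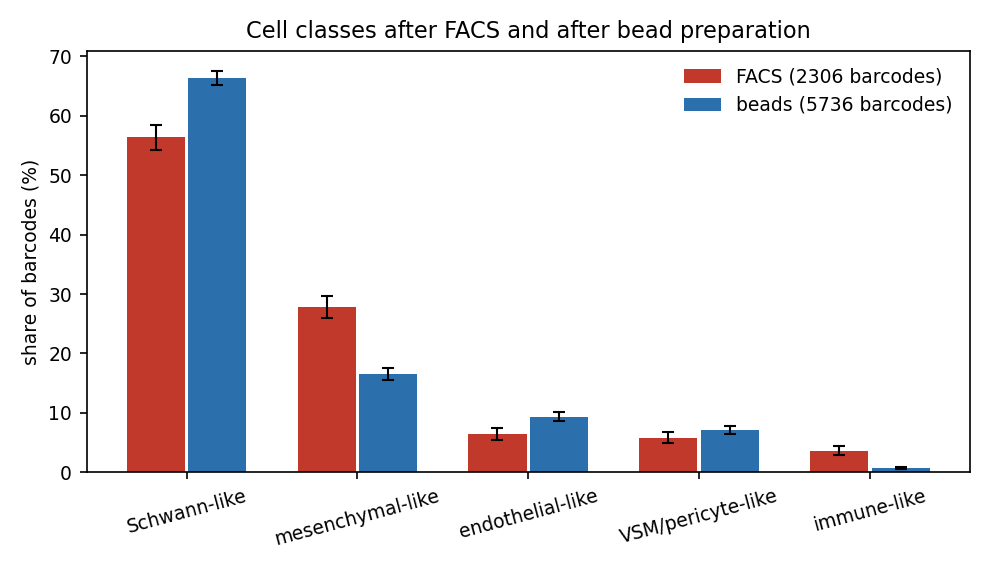
Share of cells (% of the library) in each class for the FACS and the bead library, with exact 95% intervals for counting error. FACS is higher for mesenchymal-like (27.8 against 16.6%) and immune-like cells (3.64 against 0.680%) and lower for the other classes.

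The immune-like cells were of different kinds in the 2 preparations. With FACS they were led by macrophage genes: the chemokine Pf4 stood at 5569 CPM, the mannose receptor Mrc1 at 3814 and the complement gene C1qa at 3219, against 262, 262 and 548 CPM with beads. Dab2, an endocytic adaptor, had 416 UMIs there against 2, Ms4a7 had 190 against 1 and the lysosomal lipase Lipa 135 against 1. The scavenger receptors Cd163 and Marco had 82 and 45 UMIs in the FACS library, and Fcrls, Ccl24 and Fcna had 196, 94 and 64, all with no UMI in the bead library.

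With beads, the immune-like cells were led by mast cell and neutrophil genes. The mast cell proteases Cma1, Tpsb2 and Cpa3 stood at 32449, 25259 and 18807 CPM, and the neutrophil genes S100a8 and Ngp at 25140 and 7023 CPM. S100a8 had 1089 UMIs in the whole bead library and 0 with FACS. The antibacterial enzyme Lyz2, which macrophages and neutrophils both express, was at 4523 CPM with FACS and 3976 with beads. The immune genes named here were partly chosen after their values were seen.

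Counted cell by cell, 73 FACS cells (3.17%, 2.49 to 3.96) held at least 10 UMIs of C1qa, C1qb, C1qc, Pf4 and Mrc1 together, against 3 bead cells (0.0523%, 0.0108 to 0.153). At least 10 UMIs of the mast cell genes Cma1, Tpsb2, Cpa3 and Mcpt4 were held by 3 FACS cells (0.130%) and 10 bead cells (0.174%). All 3 FACS cells lay in the shallow Schwann-like cluster, and all 10 bead cells among the immune-like cells. The neutrophil genes S100a8, S100a9, Ngp and Camp reached 10 UMIs in 5 bead cells and in 0 of 2306 FACS cells (exact upper limit 0.160%), where they had no UMI.

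Schwann-like cells carried more myelin mRNA with FACS. The list of 12 myelin genes summed to 26041 CPM against 6824 with beads (log2 1.93), and 8 of the 10 compared genes were past 2-fold higher, where 3.46% of all genes compared in Schwann-like cells were. Pmp22, a myelin membrane protein, was at 10753 against 2322 CPM, and Mbp, which compacts the membranes, at 9661 against 2250. Of the myelin genes compared outside Schwann-like cells, 2 of 2 were past 2-fold higher in mesenchymal-like (all genes 1.99%), 2 of 3 in endothelial-like (all genes 2.08%) and 2 of 3 in VSM/pericyte-like cells (all genes 5.53%).

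Other myelin genes moved by different amounts. Ncmap, a myelin membrane protein, was at 496 against 33.7 CPM, and the lipid binding protein Pmp2 at 933 against 67.8. The adhesion protein Mag was at 605 against 142 CPM and periaxin (Prx) at 964 against 348, while Egr2, the transcription factor that drives myelination, was at 172 against 112. Mal, a protein of membrane sorting, was at 1639 against 1150 CPM. Without the shallow cluster the Mbp log2 value was 1.70, in place of 2.10. These genes other than Pmp22 and Mbp were chosen after their values were seen.

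Genes of immature and non-myelinating Schwann cells summed lower with FACS (log2 -0.48), with 1 of the 7 compared, Ngfr, past 2-fold lower (all genes 2.14%). The neurotrophin receptor Ngfr was at 166 CPM against 351, the sodium channel Scn7a at 305 against 551, and Pou3f1, a transcription factor of promyelinating cells, at 660 against 670. The clusters behind these sums differed. With FACS, 543 cells led by Ednrb, Sostdc1 and Scn7a, 199 with Pou3f1, 150 led by myelin genes, 100 dividing cells and the shallow 308 made up the class. With beads there were 1980, 770 cells led by Scn7a, 711 dividing and 345 led by myelin genes. Dividing clusters thus held 7.69% of Schwann-like cells with FACS and 18.7% with beads.

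Mesenchymal-like cells split in both libraries into a cluster led by Apod and Thbs4, with the endoneurial markers, and the rest. The Apod cluster held 114 of 640 cells with FACS (17.8%) and 292 of 950 with beads (30.7%). With FACS the rest fell into 279 cells with epineurial markers, led by Dlk1 and Ly6a, and 247 with perineurial markers, led by Igfbp6, and with beads into 1 cluster of 658 cells. Clusters were built from these genes in each library, so their sizes are given as a description.

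Genes of cell division went in different directions by class. Their sum in Schwann-like cells was 1074 CPM with FACS against 1737 with beads (log2 -0.69), with 2 of the 10 compared past 2-fold lower (all genes 2.14%). In VSM/pericyte-like cells it was 1674 against 846 (log2 0.98), with Mki67, a protein of cycling nuclei, at 303 against 107 CPM and the topoisomerase Top2a at 282 against 139. There, 7 of the 9 compared genes were past 2-fold higher, against 5.53% of all genes compared in that class. Mesenchymal-like cells had 371 against 307 CPM and endothelial-like cells 804 against 903.

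Immediate early genes were lower with FACS in every class. The 29 listed genes summed to 3117 CPM against 11071 in Schwann-like cells (log2 -1.83, -1.86 to -1.79), 2428 against 6520 in mesenchymal-like (log2 -1.42), 3539 against 8312 in endothelial-like (log2 -1.23) and 4250 against 20740 in VSM/pericyte-like cells (log2 -2.29). The median over these 4 classes was -1.63. Immune-like cells, too few with beads for the comparison over all genes, had 5391 against 14427 CPM.

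Past 2-fold lower were 11 of the 16 genes compared in Schwann-like cells, against 2.14% of all genes there. In mesenchymal-like cells they were 12 of 17 (all genes 2.11%), in endothelial-like cells 15 of 22 (2.63%) and in VSM/pericyte-like cells 21 of 23 (4.59%), with 0 past 2-fold higher in any of the 4. Without the shallow cluster the log2 value in Schwann-like cells was -1.75. In the adult bead libraries the same sum was 33635 to 58387 CPM over these 4 classes in uninjured nerve and 10071 to 14848 CPM at 3 DPI.

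Fos, which pairs with Jun in the transcription factor AP-1, was at 525, 206, 259 and 492 CPM with FACS in Schwann-like, mesenchymal-like, endothelial-like and VSM/pericyte-like cells. With beads it was at 2778, 1149, 1006 and 3828 CPM. Every FACS value thus lay below every bead value. Jun was at 550, 378, 327 and 641 CPM against 2328, 944, 930 and 2921 in the same order.

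Egr1, a zinc finger factor induced by growth signals, was at 237, 283, 216 and 499 CPM with FACS and 1186, 870, 780 and 1782 with beads. Junb was at 107, 109, 137 and 324 CPM against 420, 474, 724 and 1739. Zfp36, which promotes the decay of cytokine mRNAs, was at 17.6, 42.8, 117 and 89.5 CPM with FACS and 118, 204, 453 and 1063 with beads. Ier2 was at 85.8, 99.1, 340 and 152 CPM against 570, 528, 937 and 1289. Jund, an AP-1 member with steadier expression, moved less, with log2 values of -0.74, -0.12, -0.06 and -1.18. With every cell thinned to 500 UMIs, a Fos UMI was found in 14.7, 4.49, 5.11 and 11.2% of FACS cells and in 53.7, 26.0, 26.1 and 60.7% of bead cells. Without thinning the shares were 26.3, 14.1, 16.9 and 26.9% with FACS and 64.1, 40.9, 40.9 and 73.5% with beads.

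**Figure D2:**
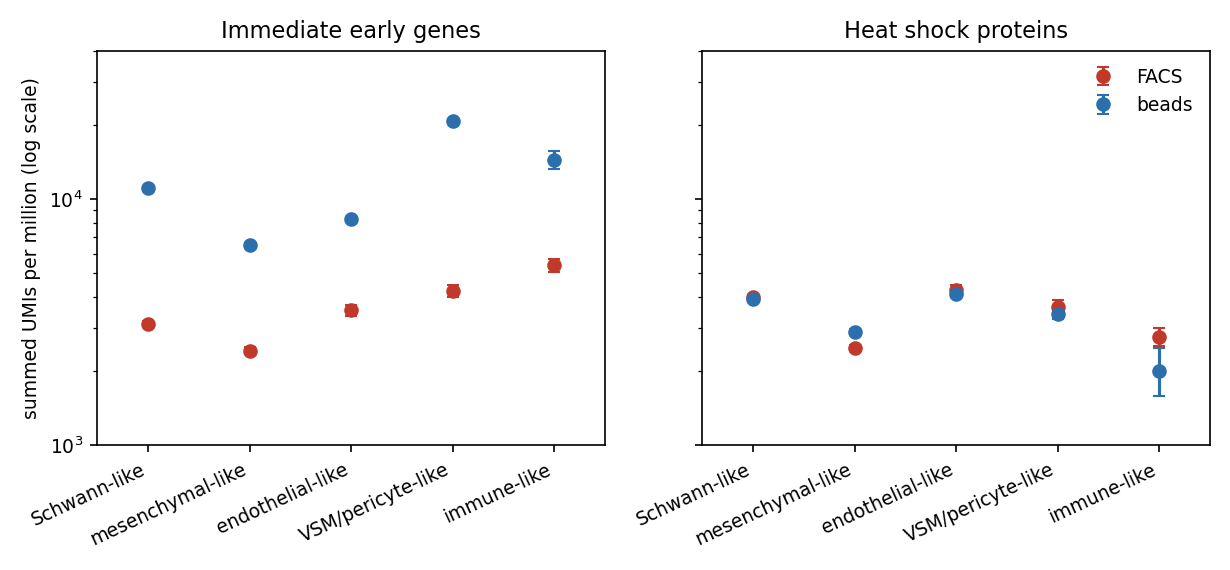
Summed level of the immediate early genes (left) and heat shock genes (right) in each class, in CPM on a log axis, for FACS and beads with exact 95% intervals for counting error. The FACS level of immediate early genes lies below the bead level in all 5 classes (3117 against 11071 CPM in Schwann-like cells), while the heat shock levels lie close together (4016 against 3933 CPM).

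Other stress genes did not all follow. Heat shock proteins, chaperones induced by misfolded protein, summed to 4016 against 3933 CPM in Schwann-like cells (log2 0.03), with -0.21, 0.06 and 0.09 in the other 3 classes. Of the heat shock genes compared, Hspb1 in VSM/pericyte-like cells passed 2-fold (log2 -1.34) and none did in the other 3 classes. Over all genes, 4.59% were past 2-fold lower in VSM/pericyte-like cells. In the other 3 classes 2.11 to 2.63% were lower and 1.99 to 3.46% higher. Only 6 heat shock genes were compared in every class, too few to set apart from these shares. Hsp90ab1, the most abundant, was at 0.13, -0.13, 0.12 and 0.15. Genes of the endoplasmic reticulum stress response stood at 0.05 to 0.41. The inflammatory list had few UMIs and stood at log2 -1.52, -1.41, -3.26 and -1.71, and its chemokine Cxcl1 was at 41.6 CPM against 249 in mesenchymal-like and 37.9 against 470 in VSM/pericyte-like cells. The p53 target list was higher in Schwann-like cells (log2 0.85), where Cdkn1a, an inhibitor of the cell cycle, was at 451 CPM against 101. Metallothioneins, which bind metals, were at log2 0.57 in Schwann-like and -1.40 to -0.52 in the other 3 classes.

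The 250 bases before the annotated start are shown for 5 of the genes past 2-fold lower in all 4 classes, from RefSeq GRCm38.p6. Fos, Fosb, Junb and Nr4a1 were chosen because their windows hold TGACG, and Jun as one of the 3 windows, with Socs3 and Zfp36, that do not. Capitals mark TGACG on either strand, read as CGTCA on the other, and TATAAA.
Fos, chr12:85473640-85473889 (plus strand): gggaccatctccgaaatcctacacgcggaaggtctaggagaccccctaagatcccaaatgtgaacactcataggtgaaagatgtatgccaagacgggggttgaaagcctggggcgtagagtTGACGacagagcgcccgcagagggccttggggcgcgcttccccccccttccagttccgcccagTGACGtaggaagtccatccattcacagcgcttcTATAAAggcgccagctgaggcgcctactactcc
Fosb, chr7:19310046-19310295 (minus strand): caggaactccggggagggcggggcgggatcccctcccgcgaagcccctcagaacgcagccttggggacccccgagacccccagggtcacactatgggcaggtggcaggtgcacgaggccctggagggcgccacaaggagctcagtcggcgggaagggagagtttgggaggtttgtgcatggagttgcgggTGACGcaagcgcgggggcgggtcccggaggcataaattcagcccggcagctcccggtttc
Junb, chr8:84978749-84978998 (minus strand): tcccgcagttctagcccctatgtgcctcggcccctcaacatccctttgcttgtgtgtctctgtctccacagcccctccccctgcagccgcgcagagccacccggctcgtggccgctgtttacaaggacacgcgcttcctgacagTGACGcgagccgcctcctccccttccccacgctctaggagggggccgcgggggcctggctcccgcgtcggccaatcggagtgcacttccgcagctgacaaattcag
Nr4a1, chr15:101266596-101266845 (plus strand): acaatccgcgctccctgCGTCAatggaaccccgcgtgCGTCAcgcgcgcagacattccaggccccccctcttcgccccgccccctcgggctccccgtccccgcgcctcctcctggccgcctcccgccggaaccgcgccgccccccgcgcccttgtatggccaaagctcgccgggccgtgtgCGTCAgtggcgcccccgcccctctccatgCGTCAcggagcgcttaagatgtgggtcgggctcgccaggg
Jun, chr4:95052223-95052472 (minus strand): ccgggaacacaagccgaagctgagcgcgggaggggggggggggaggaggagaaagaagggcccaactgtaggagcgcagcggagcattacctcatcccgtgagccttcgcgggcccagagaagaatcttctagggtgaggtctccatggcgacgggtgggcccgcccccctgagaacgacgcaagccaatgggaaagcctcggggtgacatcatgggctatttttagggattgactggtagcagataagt

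TGACG, the core letters bound by CREB and ATF factors, was in 5 of the 8 promoter windows found by symbol for these genes (62.5%) and in 13 of 25 windows of the list (52%), against 5836 of 32851 windows of all genes (17.8%). TATAAA, searched on both strands like TGACG, was in 2 of the 8 (25%) and in 12.4% of all windows. The full TGACGTCA was in 0 of the 8, in 4 of the 25 windows of the list (16%) and in 1.55% of all. With 8 windows, a count of 0 cannot be set apart from the share of all. A match is a description of letters, not of a bound site.

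Across all genes, 2453 were compared in each of the 4 classes. Past 2-fold in the same direction in all 4 were 27 genes higher with FACS (1.1%) and 33 lower (1.35%). Of the 15 immediate early genes compared in all 4, 10 were lower (Fosb, Junb, Fos, Zfp36, Egr1, Socs3, Ier2, Jun, Nr4a1 and Cyr61). Among the 63 ribosomal protein genes compared in all 4, 13 were lower and 0 higher. All 13 share sequence with another gene, in the sense given below, so their levels are uncertain. By class, 22 of 68 ribosomal protein genes were past 2-fold lower in Schwann-like (all genes 2.14%), 23 of 63 in mesenchymal-like (2.11%), 16 of 70 in endothelial-like (2.63%) and 18 of 69 in VSM/pericyte-like cells (4.59%).

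The genes higher in every class were of 2 kinds. Myelin genes were there, with Mbp at 324, 1276 and 362 CPM in mesenchymal-like, endothelial-like and VSM/pericyte-like FACS cells against 108, 107 and 128 with beads. Pmp22 was at 729, 355 and 630 CPM against 342, 146 and 274. The other kind, 24 of the 27, shared at least 10% of their 31-base words with transcripts of another gene, where 443 of 2443 genes compared (18.1%) did. They were led by Rpl9-ps6 (log2 2.51 to 3.22), Gm22426, Gm10288, Mir682 (2.44 to 3.45), Gm10073, Gm10263, Lrrc58, Eif3j2, Rpsa-ps10, Gm4950 and Gm22761. Most share their sequence with a ribosomal protein gene, so their levels are uncertain, since reads can be given to one copy or the other.

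Of the genes lower in every class, 22 of the 32 with a known transcript (68.8%) shared sequence in this sense. With the immediate early genes and globins left out, 20 of the 20 with a known transcript did. The lowest were the globins Hbb-bs (log2 -8.64 to -7.02) and Hba-a1 (-8.13 to -5.95, where the last value, in endothelial-like cells, sets 0 UMIs with FACS at a floor of 3 and is a bound). Erdr1 followed, with 3 UMIs in FACS Schwann-like cells against 1292 and none in the other FACS classes against 350, 277 and 130. Rps28, a protein of the small ribosomal subunit, had log2 values of -3.45 to -3.01. Its sum with Gm10263, which shares its sequence, was at log2 0.60 to 0.92. Rpl7, Rps7, Rps16, Rpl35, Rps13 and Grcc10 were also among the lowest.

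**Figure D3:**
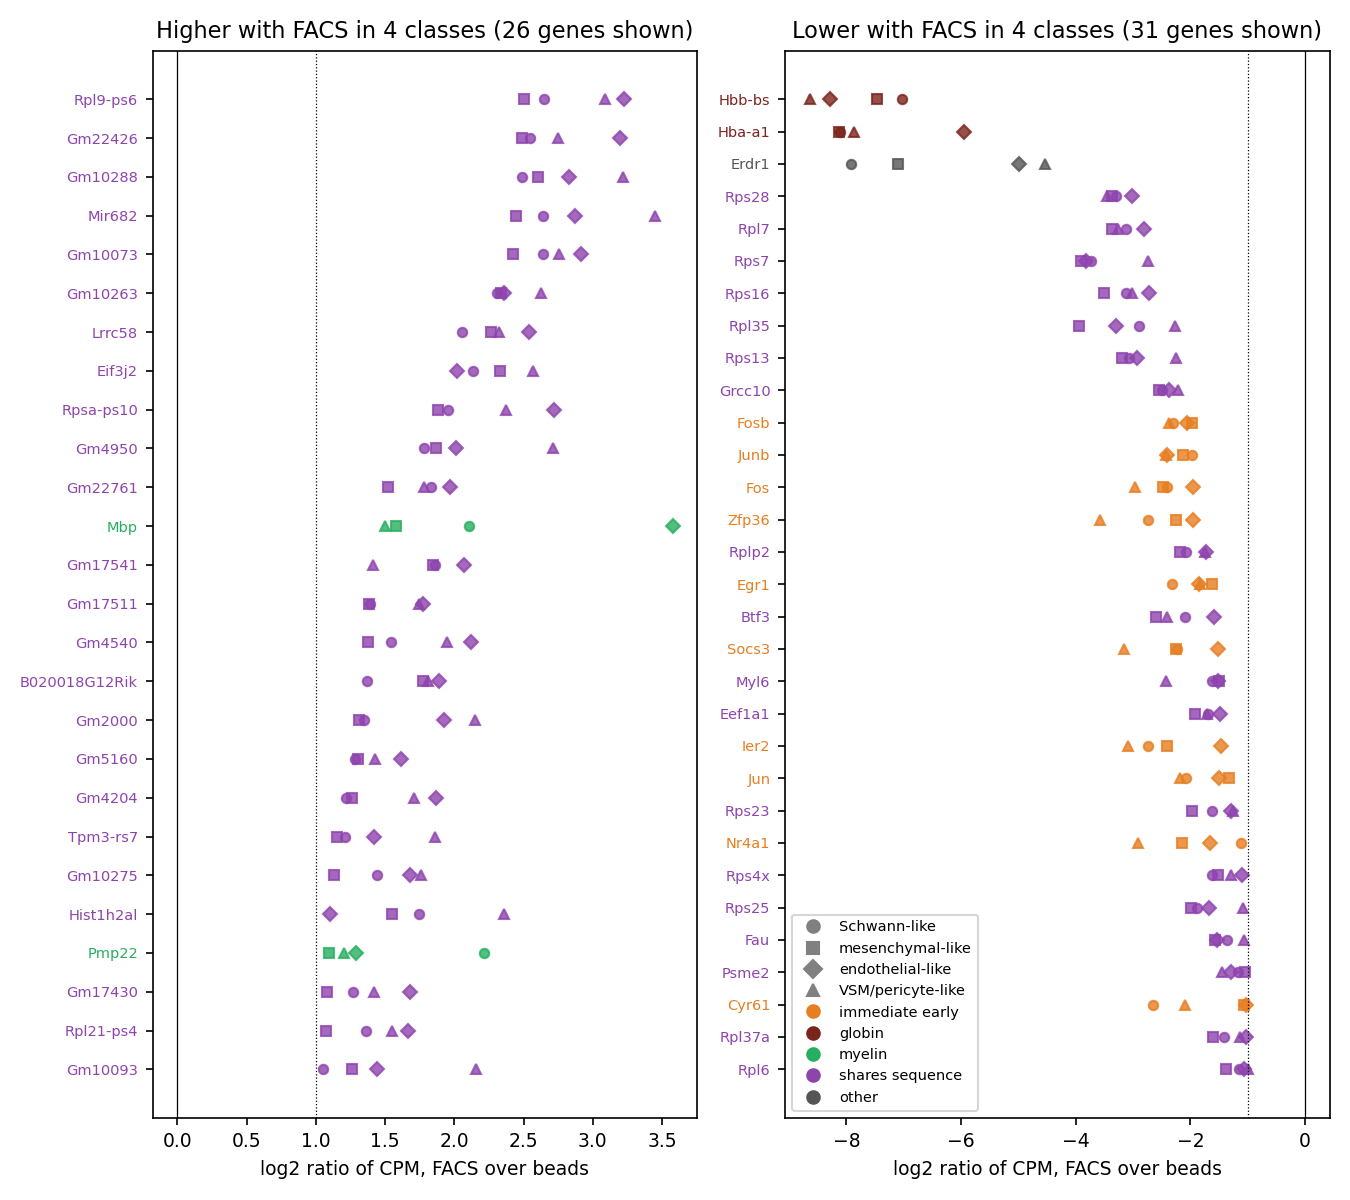
Log2 level with FACS over beads in the 4 classes (1 point per class) for 26 of the 27 genes higher and 31 of the 33 lower past 2-fold in all 4, coloured by kind, with a dotted line at 2-fold. Myelin genes lie above 0, and globins and immediate early genes below. Genes that share sequence lie on both sides, with ribosomal protein genes among the lower ones.

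The copies can be read beside the genes they share sequence with. Mir682, a microRNA gene at chr13:75645046-75645141 (plus strand, GENCODE vM21, mm10), and 96 coding bases of Rpl37a, which encodes a protein of the large ribosomal subunit and is spliced there between chr1:72712160-72713532 (plus strand), are shown because their levels went in opposite directions. They are identical at 95 of 96 bases, and capitals mark the base that differs.
Mir682: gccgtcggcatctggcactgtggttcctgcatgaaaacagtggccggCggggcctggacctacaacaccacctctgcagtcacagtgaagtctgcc
Rpl37a: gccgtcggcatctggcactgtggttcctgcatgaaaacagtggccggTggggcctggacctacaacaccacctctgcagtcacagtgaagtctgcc

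Mir682 took 57.1, 56.5, 54.0 and 58.9% of the UMIs of this pair in the Schwann-like, mesenchymal-like, endothelial-like and VSM/pericyte-like FACS cells. With beads it took 7.42, 7.32, 7.34 and 5.63%. Rpl37a itself was lower with FACS (log2 -1.60 to -1.02), and the sum of the pair lay between -0.51 and 0.06. In the adult bead libraries Mir682 took 17.7% at 3 DPI and 8.84% in uninjured nerve.

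Of the UMIs of Gm10263 and Rps28 together, Gm10263 took 95.4 to 96.6% with FACS, against 28.7 to 35.2% with beads. Gm2000 took 88.4 to 94.3% beside Rpl35, against 26.1 to 31.7%, and Gm10073 took 19.6 to 20.7% beside Rplp1, against 2.80 to 2.92%. The summed pair was at log2 -0.45 to 0.39 for Gm2000 with Rpl35 and -0.40 to 0.09 for Gm10073 with Rplp1. Of 14 such pairs, 13 had a higher copy share in every FACS class than in any bead class. The copies were taken from the genes higher with FACS in every class. That choice largely set the direction of their share, so the count is a description only. The summed pair was past 2-fold in every class for 4 of the 14, among them Rpl9-ps6 with Rpl9 (log2 up to 2.74), and not for the other 10. No source used here says whether the 2 tables were counted against the same gene annotation, and its part in these values was not tested.

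**Figure D4:**
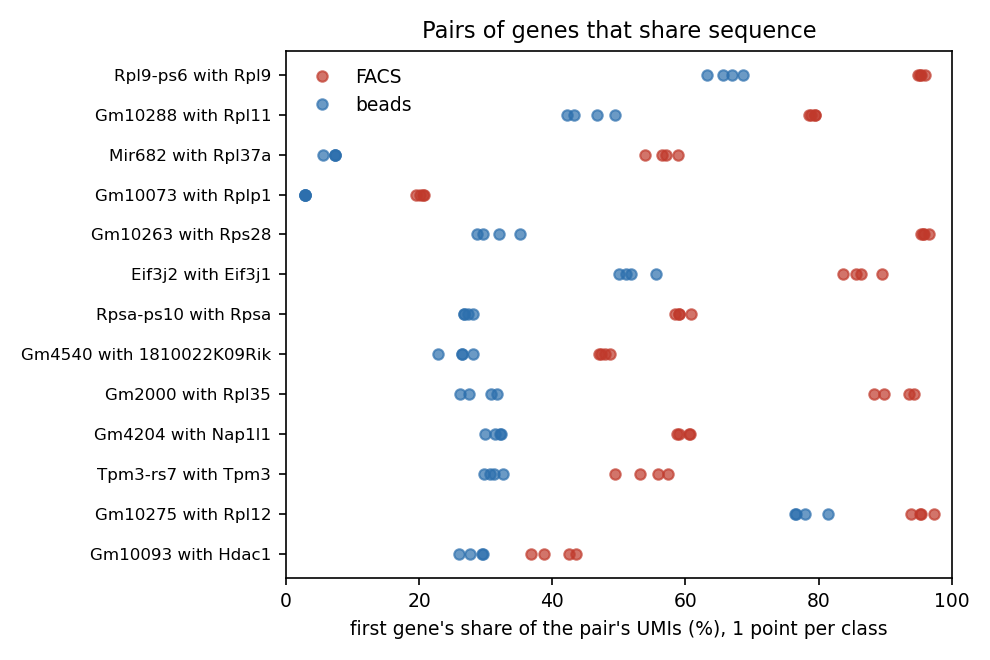
Share (%) of the UMIs of a pair of genes with shared sequence that went to the first gene, 1 point per class, for the 13 pairs whose FACS and bead shares do not overlap. The first genes were taken from those higher with FACS in every class. For Mir682 with Rpl37a the FACS classes lie at 54.0 to 58.9% and the bead classes at 5.63 to 7.42%.

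Collagen and matrix genes, highest in mesenchymal-like cells, were also counted in Schwann-like cells of both libraries. Their list stood at 10580 CPM with FACS and 10807 with beads there. Set against the level in the whole library this was 20.9% with FACS and 44.1% with beads, a difference of -23.2 points. The library level itself was 50540 CPM with FACS and 24509 with beads. It includes the mesenchymal-like cells, whose share of cells also differed, so the points follow the divisor more than the level in Schwann-like cells. Against the mesenchymal-like cells of the same library it was 8.32 and 12.3%. In endothelial-like cells the same list stood at 3174 and 1891 CPM, or 6.28 and 7.71% of the library level, and in immune-like cells at 1532 and 1357 CPM. Per UMI of the collagen Col1a1, the proteoglycan Dcn had 0.0882 UMIs in FACS and 0.0637 in bead Schwann-like cells, but 0.426 and 0.632 in mesenchymal-like cells, so the 2 genes were not in 1 ratio across classes. These values are given as levels, not as free RNA.

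The list of Schwann genes in endothelial-like cells was at 3118 CPM with FACS and 630 with beads, which was 9.83 and 7.84% of the library level. Mesenchymal-like cells held 2559 against 850 CPM, which was 8.06 and 10.6% of the library level. VSM/pericyte-like cells held 3013 against 1406 CPM, or 9.50 and 17.5%. The share was thus higher with FACS in endothelial-like cells and lower in the other 2 classes. Mbp was 4.29-fold higher with FACS in Schwann-like, 2.99-fold in mesenchymal-like, 11.9-fold in endothelial-like and 2.83-fold in VSM/pericyte-like cells. Pmp22 was higher by 4.63, 2.14, 2.44 and 2.30-fold in the same order. The part of free RNA in these differences was not tested.

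Globin mRNA, the product of red blood cells, ran the other way. It was at 15.5 CPM of the FACS library and 2544 of the bead library. Across the Schwann-like, mesenchymal-like, endothelial-like and VSM/pericyte-like classes it was at 5.07 to 18.9 CPM with FACS and 3188, 1758, 1321 and 2437 with beads. Hbb-bs had 1.58 to 1.72 UMIs per UMI of Hba-a1 in the bead classes, so the 2 genes held nearly 1 ratio in all 4. No FACS cell and 31 bead cells held more than 5% globin UMIs.

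**Figure D5:**
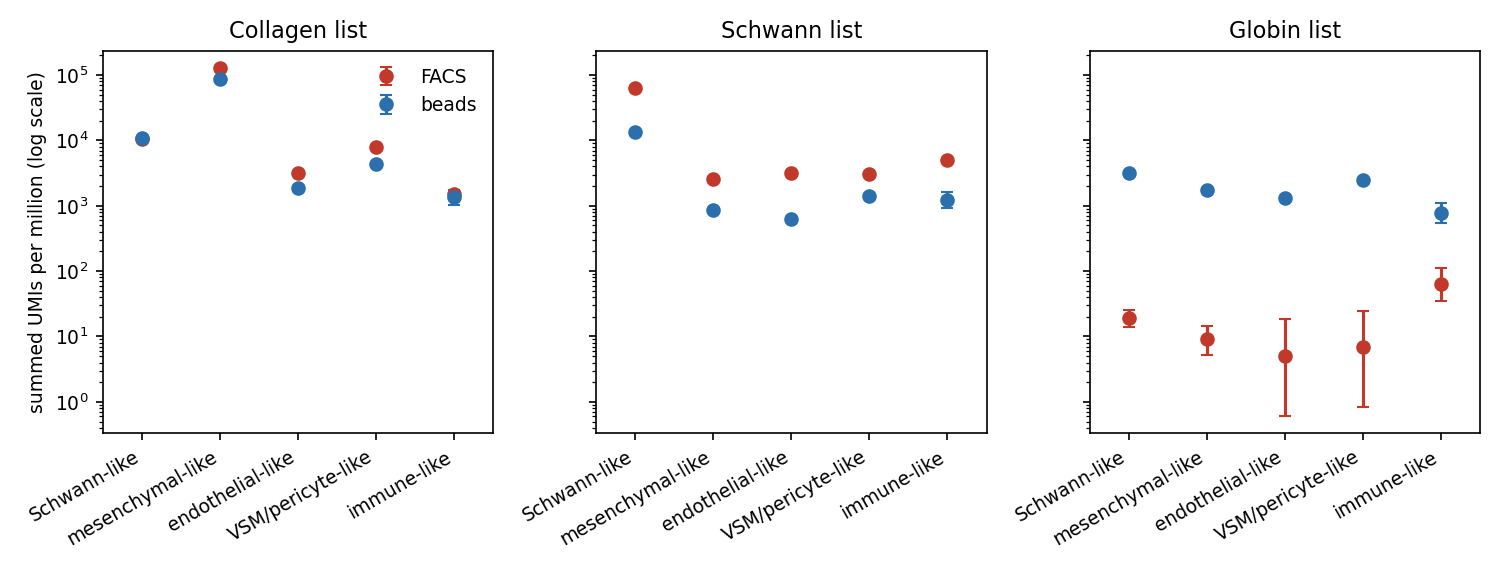
Summed level of the collagen, Schwann and globin lists in each class, as CPM on a log axis, for FACS and beads with exact 95% intervals for counting error. In the 4 larger classes globin is at 5.07 to 18.9 CPM with FACS and 1321 to 3188 CPM with beads.

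Other genes differed in some of the classes. Rgs5, a pericyte gene, had 2 UMIs (5.07 CPM) in FACS endothelial-like cells against 443 (388.5 CPM) with beads, and 366 CPM with called doublets left out. Acta2, the smooth muscle actin, was at 20.3 against 224.5 CPM there and at 3650 against 8007 CPM in VSM/pericyte-like cells. In VSM/pericyte-like cells Rgs5 was at 9471 against 6079 CPM, and Rergl, a gene of smooth muscle, at 3.44 against 106. The mitochondrial tRNA mt-Tc was at 180 against 2.65 CPM in mesenchymal-like and 282 against 0 in endothelial-like cells. Adipoq and Car3, genes of fat cells, and Mme led the higher genes of Schwann-like cells, and the shallow cluster held 325 of the 329 Adipoq and 2171 of the 2185 Car3 UMIs. Of the 280 Mme UMIs it held 35. Car3 ran the other way in mesenchymal-like cells, with 6 UMIs against 301. At least 10 UMIs of Adipoq, Cfd, Car3 and Lpl together were held by 6 Schwann-like FACS cells, all in the shallow cluster. Another 21 such FACS cells were mesenchymal-like. With beads, 1 such cell was Schwann-like and 7 were mesenchymal-like. Whether fat cells were classed differently in the 2 libraries was not tested.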

How the data were processed

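Drop-seq digital expression tables of 2 neonatal sciatic nerve libraries were used, and the adult bead libraries for comparison. The submitters' processing notes name the build mm10, and no source used here gives the aligner version or annotation. The authors deposited raw UMI counts per gene and barcode, not normalized. Cells were normalized with scran 1.30.0 size factors, and each library was clustered on its own with scanpy 1.11.5 (2000 variable genes, 20 principal components, 20 neighbours, Leiden resolution 0.4). Doublets were kept, and removed as an alternative. The 5042018 and 7445539 UMIs kept set the precision. Alternatives changed the cell filters, normalization, clustering, doublets, depth and thresholds. Raw counts were summed by class and compared as CPM for genes with at least 50 CPM on average and at least 10 expected UMIs in the smaller sum. A class had to have 50 cells. A side at 0 UMIs took a floor of 3. Shared sequence was counted in 31-base words of GENCODE vM21 transcripts. Named genes were up to 12 higher and 12 lower in every class, the members of each list with the highest CPM (up to 6 for immediate early and heat shock genes, 3 for others), the 3 most higher and lower of each class, and class markers. The members, lists and tests were chosen with earlier results of these data known. Some genes are not reported here. The comparison across genes was run on simulated counts with counting error only and with planted changes larger than 2-fold. That run does not cover changes near 2-fold, free RNA or reads given to another copy.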

Additional observations from a re-analysis of the deposited data

Results flagged for a closer look

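Barcodes with under 200 genes, which no comparison above uses, held a signal of globin: 83626 CPM of their UMIs with FACS and 583236 CPM with beads. Genes of cell division moved in opposite directions between classes, at log2 -0.69 (FACS over beads) in Schwann-like and 0.98 in VSM/pericyte-like cells, and the difference between the classes was not tested.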

How the results depend on the processing

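No paired analysis was possible because each preparation has 1 library. The alternatives without the shallow FACS cluster, without the shallower barcode of each pair and without genes sharing sequence were chosen after seeing the data. The Schwann-like share difference (-9.98 points) was -13.5 with at least 500 genes, -12.9 with at most 5% mitochondrial UMIs, -14.4 at resolution 0.8, -13.3 after thinning, -16.7 without the shallow cluster, and 5.86 when cells were classed one by one. The mesenchymal-like difference (11.2) was 13.8 with at most 5% mitochondrial UMIs, 13.8 after thinning and 15.5 without the shallow cluster. The VSM/pericyte-like difference (-1.30) ranged from -1.58 to -0.406, the last without the shallow cluster, and was -0.691 one by one, and the endothelial-like difference (-2.87) ranged from -2.92 to -1.88. The immune-like difference (2.96) was 3.86 with at least 500 genes and 4.34 one by one. The immediate early median (-1.63) was -1.57 with at least 500 genes, -1.75 after thinning and -1.55 with the median shift removed. The collagen list in Schwann-like cells, as a share of the library level (-23.2 points), was -21.0 with at least 500 genes, -20.7 with library-size factors, -24.1 one by one and -25.5 after thinning. The Schwann list in endothelial-like cells (1.99 points) was 3.19 with at least 500 genes, 0.894 without doublets, 0.717 one by one, 3.21 after thinning and 3.01 without the shallow cluster. The 27 genes higher in every class were 14 after thinning, 11 at 3-fold, 45 at 1.5-fold, 16 from 100 CPM, 41 with no minimum and 3 without genes sharing sequence. The 33 lower were 21 after thinning, 18 at 3-fold and 10 without genes sharing sequence, and those 10 held no ribosomal protein gene. Nuclear RNA in VSM/pericyte-like cells changed sign, from -0.14 to 0.085 one by one and 0.16 after thinning. The causes were not tested. Heat shock stayed between 0.0019 and 0.078.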
